A study of Mus musculus with 6 samples.

Results

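Integrin and laminin genes were followed across cells with and without Ggct knockdown. The members are genes whose symbol is that of an integrin alpha or beta subunit (Itga or Itgb with a subunit code) or of a laminin alpha, beta or gamma chain (Lama, Lamb or Lamc with a number). This gave 36 genes, 17 alpha subunits, 9 beta subunits and 10 laminin chains, measured by 56 probes, out of 22903 named genes and 56593 probes on the array. The rule used gene names only and no measured value, but the members were chosen with earlier results of these data known. Of the 36 members, 24 were bright enough to be tested, 18 integrins and 6 laminins, and each of these was well above background on all 6 arrays, so none entered through 1 group alone.

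Integrins are cell surface receptors built of 1 alpha and 1 beta subunit. They bind matrix proteins outside the cell and connect, through talin, kindlin and paxillin, to the actin skeleton inside. Laminins are heterotrimers of an alpha, a beta and a gamma chain and form the basement membrane, the thin matrix sheet around vessels and under epithelia, and several integrins recognise them. In brain and in glioma, laminin-rich vessel walls are a known niche of stem-like cells, and glioma stem cells are often grown on laminin. Here the cells grew as floating neurospheres, without an added matrix named in the labels.

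Total RNA came from a mouse glioblastoma stem cell line, established as neurospheres from brain tumours that an SB transposon had induced, and kept in serum-free neural stem cell medium with B27, N2, EGF and bFGF. All cells had been transduced with lentivirus, 3 control samples with a non-target hairpin and 3 knockdown samples with a hairpin against Ggct, the gene of gamma-glutamylcyclotransferase. The design asks what suppressing this enzyme does to gene expression. The samples of both groups come from 1 line, the titles name 1 hairpin against Ggct, and the strain and sex of the mice are not given in the sources used here. A control and a knockdown sample shared each of 3 dates in the titles and are called pairs 1 to 3. Whether the samples of 1 group are separate cultures is not stated, so a p-value covers only the array-to-array spread, which may be technical.

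Each RNA was hybridised to a single-colour Agilent array. A gene's level is given as the log2 of its background-corrected signal minus the 75th percentile of all probes on the same array, so 0 means as bright as that percentile. Levels of different genes are not compared as amounts of RNA, because probes differ in brightness. A summed signal of marker genes adds the signals of their probes, so its brightest probes weigh most. Knockdown minus control is the log2 fold change, tested with limma over 14148 genes, and the threshold was a Benjamini-Hochberg adjusted p below 0.05. Ggct itself was at 12.7% of control, with no overlap between the groups. Between 54.5% and 56.8% of the probes of an array were well above background, and no spot was saturated (0 on each array). In a principal component analysis of the tested genes, the first component placed knockdown 1 far out, at 46.6, with knockdown 2 at 9.13, knockdown 3 at 15.4 and the controls at -30.5 to -15.0, so Itga7, Itga5, Lama5 and the list genes past the threshold are also given without it. Of the marker genes of the line's type, Nes, Sox2, Cd44, Fabp7, Prom1, Msi1 and Vim were well above background on all arrays and Olig2 on 0.

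Ggct knockdown left most integrin and laminin transcripts within a factor of 1.5 of control. Itga7, a laminin-binding alpha subunit, fell to 56.5% of control and was the only one of the 24 tested members to pass the threshold. That is 1 of 18 integrins and 0 of 6 laminins, where 7.41% of all genes passed, so the share of members past the threshold was no larger than the background. Changes of 1.5-fold or more were measured for 6 of the 24 members, which is 25.0% beside 11.8% of all genes. Itga7, Itga5 and Itga8 had lower values and Itga2, Lama5 and Lamb3 had higher ones. At an unadjusted p below 0.05 stood 13 members, 8 lower and 5 higher, which is 54.2% of those tested beside 24.8% of all genes, 10.7% lower and 14.1% higher. The median size of the log2 fold change, without regard to sign, was 0.31 over the members and 0.20 over all genes. The signed median was -0.07 for integrins, 0.03 for laminins and 0.02 for all genes.

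**Figure D1:**
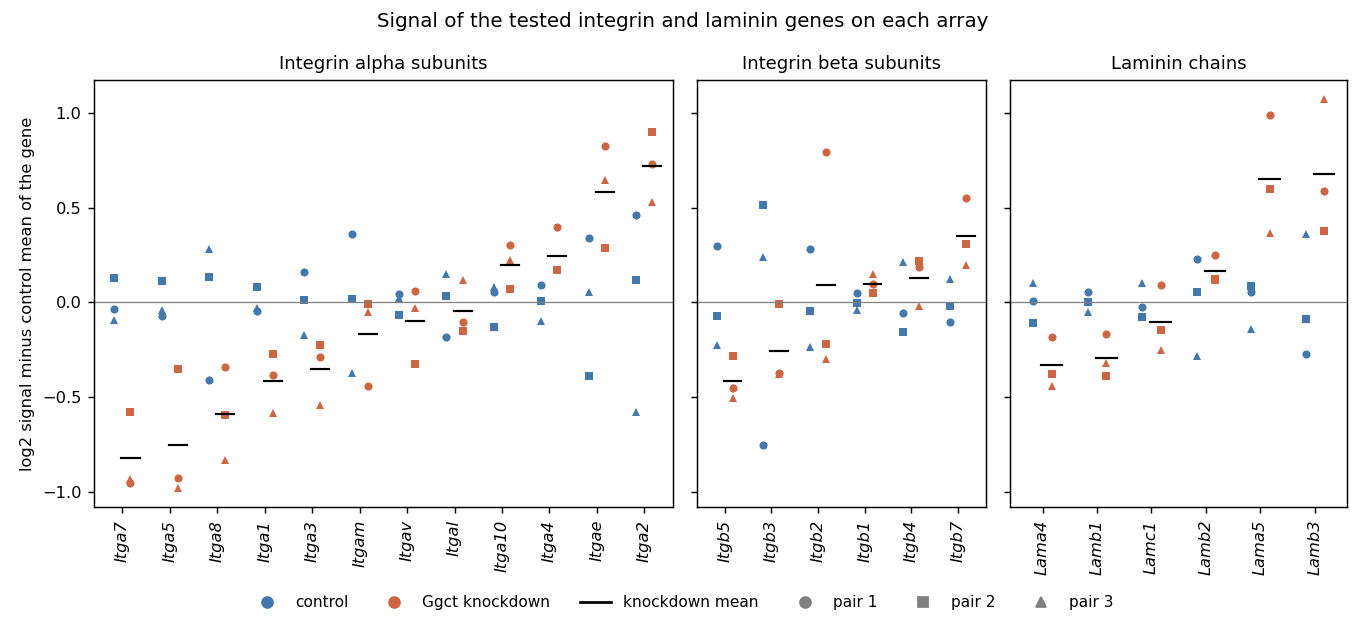
Signal of each of the 24 tested genes on each of the 6 arrays, as log2 signal minus the mean of the 3 control arrays of that gene (blue, control; orange, knockdown; marker shapes, pairs; black line, knockdown mean). The knockdown points of Itga7 and Itga5 lie below all their control points, those of Lama5 and Lamb3 lie above, while the points of Itgav, Itgal and Itgb4 mix.

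Among the receptors for laminin, Itga7 is best known from skeletal muscle, where it pairs with Itgb1 and ties the fibre to its basement membrane. Its probe A_55_P2040011 gave 4.55, 4.71 and 4.49 in the controls and 3.63, 4.0 and 3.65 in the knockdown arrays. The groups were apart, with a gap of 0.49 between the lowest control and the highest knockdown array. The log2 fold change was -0.82 ± 0.14 (SE, n = 3 per group; limma adjusted p = 0.0215), and its 95% interval ran from 44.8% to 71.4% of control. The pairs differed by -0.92, -0.71 and -0.84. A second Itga7 probe, A_52_P413034, had a log2 fold change of -0.85 ± 0.25 (SE), so the probes gave the same size. Without knockdown 1 the log2 fold change was -0.76 (limma adjusted p = 0.0358). With the pair as a replicate block Itga7 passed as well, where 3.94% of all genes did. The call was lost without control 1 (adjusted p = 0.0834), control 2 (0.0928) or knockdown 3 (0.0815), with log2 fold changes of -0.84, -0.76 and -0.77. It was also lost without pair 1 (limma adjusted p = 0.0904), pair 2 (0.107) or pair 3 (0.143), without the filter on dim probes (0.0578) and in the fit of every probe (0.0531), which makes 8 of 19 alternatives.

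The other laminin receptor subunits above background did not pass. Itga3, which binds laminins that carry the Lama5 or Lama3 chain, had control values of 1.15, 1.0 and 0.82 and knockdown values of 0.70, 0.76 and 0.45. These groups were also apart, though by a narrow gap, and the log2 fold change was -0.35 ± 0.14 (SE) at an adjusted p of 0.18 by limma. A second, dimmer Itga3 probe had -0.06 ± 0.25 (SE). Itgb4, the long-tailed beta subunit of epithelial hemidesmosomes, overlapped between groups, with a log2 fold change of 0.13 ± 0.14 (SE) and an interval from -0.20 to 0.46.

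Among the fibronectin receptors, Itga5 had the second lowest log2 fold change of the members and missed the threshold by a narrow margin. Itga5 pairs with Itgb1 to form the classical fibronectin receptor. Its probe A_52_P364140 gave -0.03, 0.16 and 0.01 in the controls and -0.88, -0.31 and -0.94 in the knockdown arrays. Knockdown 2 was nearest to the controls, and the groups did not overlap. The log2 fold change was -0.75 ± 0.18 (SE) at an adjusted p of 0.0505 by limma, or 59.3% of control with an interval from 44.1% to 79.7%. Without knockdown 1 the value was -0.67 (limma adjusted p = 0.0918), and without knockdown 2 it was -0.95 (limma adjusted p = 0.0231). Over the alternatives of the closing section its adjusted p ran from 0.0231 to 0.221.

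Because the title of the study names c-Jun, a subunit of AP-1, promoters were searched for the AP-1 letters TGAGTCA or TGACTCA, which are each other's reverse complement, so that both strands were read. RefSeq windows on GRCm38.p6, 250 bases before to 50 after a start, matched 24 of the 36 members with 27 windows, and 2 of these, of Itgax and Itga9, held the letters. That is 7.41% of the member windows beside 5.20% of all 32851 windows. Itgax and Itga9 were not well above background on any array. Of the 24 tested members, 16 had a window. No window was matched to Itga7, so its promoter was not searched. The Itga5 window, on the minus strand of chr15:103366742-103367041, is shown because Itga5 had the lowest adjusted p of the members with a matched window, and it did not hold those letters. Capitals mark its 13 CG pairs, where the median over all windows is 7.
Itga5: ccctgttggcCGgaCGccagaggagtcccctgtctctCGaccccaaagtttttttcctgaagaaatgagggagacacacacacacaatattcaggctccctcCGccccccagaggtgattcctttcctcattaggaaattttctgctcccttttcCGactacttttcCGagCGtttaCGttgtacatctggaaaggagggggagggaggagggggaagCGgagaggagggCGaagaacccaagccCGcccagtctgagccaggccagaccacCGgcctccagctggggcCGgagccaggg

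Itga8, an alpha subunit that binds nephronectin and other RGD proteins with Itgb1, had control values of 1.42, 1.96 and 2.11 and knockdown values of 1.49, 1.23 and 1.0. Control 1 lay among the knockdown arrays, so the groups overlapped, and pair 1 differed by 0.07 while pairs 2 and 3 differed by -0.73 and -1.11. The Itga8 log2 fold change was -0.59 ± 0.21 (SE) at an adjusted p of 0.135 by limma. The value depended on the pair left out. It was -0.92 without pair 1, -0.52 without pair 2 and -0.33 without pair 3, with limma adjusted p of 0.044, 0.496 and 0.459. Itga4, a receptor for fibronectin and Vcam1, lay apart in the other direction, with 2.89 to 3.08 in control and 3.15 to 3.38 in knockdown arrays. The Itga4 log2 fold change was 0.25 ± 0.12 (SE) at an adjusted p of 0.272 by limma.

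The collagen-binding alpha subunits had values on both sides of 0, and none of the 3 tested passed. Itga1, a receptor for basement membrane collagen, gave 0.57, 0.70 and 0.59 in control and 0.24, 0.34 and 0.04 in knockdown arrays, and every knockdown array was below every control. The Itga1 log2 fold change was -0.41 ± 0.13 (SE) at an adjusted p of 0.0927 by limma, and its second probe had -0.42 ± 0.32 (SE). Itga2, the related receptor for fibrillar collagen, gave -3.84, -4.19 and -4.89 in control and -3.58, -3.41 and -3.78 in knockdown arrays. Here the knockdown arrays were the higher ones, with a gap of 0.06 to control 1. The Itga2 log2 fold change was 0.72 ± 0.26 (SE) at an adjusted p of 0.135 by limma, and it was 0.27 under normexp background correction, which adds an offset to every signal and so shrinks the differences of dim probes most. Itga10, a collagen receptor of cartilage, overlapped between groups with 0.20 ± 0.13 (SE), and the collagen receptor gene Itga11 was not well above background on any array.

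Among the subunits of the vitronectin and latent TGF-beta receptors, Itgav showed little difference. Its values were 3.79, 3.68 and 3.77 in control and 3.80, 3.42 and 3.71 in knockdown arrays, and the groups overlapped. The Itgav log2 fold change was -0.10 ± 0.14 (SE), with an interval from 74.9% to 116% of control. Itgb5, one of its partners, gave 2.43, 2.06 and 1.91 in control and 1.68, 1.85 and 1.63 in knockdown arrays. The groups were apart by 0.06, and the log2 fold change was -0.41 ± 0.16 (SE) at an adjusted p of 0.163 by limma. Itgb3, another partner, overlapped, with -0.26 ± 0.31 (SE), and control 1 was its dimmest array at -4.29 against -3.02 and -3.30 in the other controls. The partner genes Itgb6 and Itgb8 were not well above background on any array.

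Itgb1, the shared partner of most of the alpha subunits above, had the smallest SE of the tested integrins. It gave 6.25, 6.20 and 6.16 in control and 6.30, 6.25 and 6.35 in knockdown arrays. The groups touched without overlapping, with a log2 fold change of 0.10 ± 0.11 (SE) at an adjusted p of 0.632 by limma and a 95% interval from -0.15 to 0.35. Its second probe had 0.16 ± 0.17 (SE). The interval of Itgb1 and that of Itga7 do not overlap, but the difference between those genes was not tested.

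Several integrin genes known from leukocytes were measured above background. Itgae, the alpha subunit of the E-cadherin receptor of intraepithelial lymphocytes, had a log2 fold change of 0.58 ± 0.22 (SE) at an adjusted p of 0.149 by limma, and 0.16 under normexp background correction (limma adjusted p = 0.592). Its partner Itgb7 had 0.35 ± 0.14 (SE) at an adjusted p of 0.166 by limma. Itgb7 was apart between groups, with -1.61 to -1.38 in control and -1.31 to -0.95 in knockdown arrays, and Itgae overlapped. Itgal, Itgam and Itgb2, subunits of the leukocyte adhesion receptors, had log2 fold changes of -0.05, -0.17 and 0.09 with SE of 0.14, 0.21 and 0.30. The Itgam probe used had a control mean of 3.60. A second, much dimmer Itgam probe, with a control mean of -4.34, had -0.30 ± 0.21 (SE). Itgb2 was brightest on knockdown 1, at -2.56, with -3.66 to -3.07 on the other arrays. Of 9 microglia and macrophage markers, Csf1r, Tmem119 and Cd68 were above background on all arrays and the other 6, Cx3cr1, P2ry12, Aif1, Ptprc, Adgre1 and Fcgr1, on 0 arrays. The summed signal of the 9, relative to the 75th percentile, was 2.57 to 2.89 in control and 3.60 to 4.26 in knockdown arrays, and of the 3 detected markers Tmem119 alone passed (log2 fold change 1.17, limma adjusted p = 0.0207). Csf1r and Cd68 had log2 fold changes of 0.06 and 0.16 (limma adjusted p = 0.886 and 0.481). Of 7 lymphocyte markers only Cd3e was above background on all arrays, and their summed signal overlapped, at 0.332 to 0.491 in control and 0.336 to 0.441 in knockdown arrays. The part of such cells in the values of these integrins was not tested, and in bulk RNA a change in the number of cells of a type and a change in RNA per cell cannot be told apart. Itga2b of platelets, Itga9, which binds tenascin, and the leukocyte genes Itgad, Itgax and Itgb2l were not well above background on any array. Of 5 platelet and megakaryocyte markers, 3 were above background on all arrays, with a summed signal of 0.342 to 0.480 in control and 0.563 to 0.791 in knockdown arrays, and Gp9 on 0, and their part was not tested either.

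**Figure D2:**
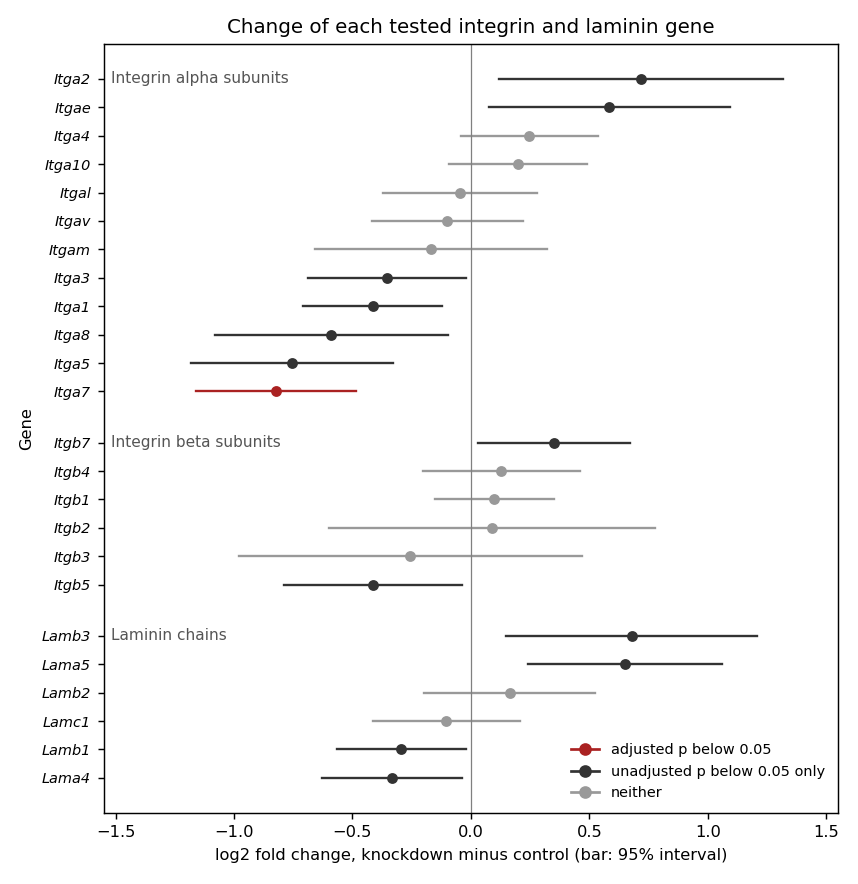
Log2 fold change of each tested gene (point, knockdown minus control) with its 95% limma interval (bar), ordered by size within alpha subunits, beta subunits and laminin chains. Itga7 at -0.82 is drawn in red as the gene past the adjusted threshold, the 12 dark genes had an unadjusted p below 0.05, and the intervals of the grey genes cross 0.

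Among the laminin alpha chains, Lama5 and Lama4 had values on opposite sides of 0. Lama5, a widespread basement membrane chain, gave 3.45, 3.49 and 3.26 in control and 4.39, 4.0 and 3.76 in knockdown arrays. All knockdown arrays were above all controls, and knockdown 1 was the highest. The log2 fold change was 0.65 ± 0.18 (SE) at an adjusted p of 0.0692 by limma, or 157% of control with an interval from 118% to 208%. Without knockdown 1 it was 0.48 (limma adjusted p = 0.0953). Lama4, a chain of vessel walls, gave 3.66, 3.54 and 3.75 in control and 3.47, 3.27 and 3.21 in knockdown arrays, again without overlap. The Lama4 log2 fold change was -0.33 ± 0.13 (SE) at an adjusted p of 0.154 by limma, and its second probe had -0.67 ± 0.33 (SE). Lama1 and Lama3 were not well above background on any array, and Lama2, the main alpha chain of muscle laminin, was above it on knockdown 1 only. Vessel cells also make these chains. Of 7 endothelial markers, Pecam1 and Cdh5 were above background on all arrays and Kdr, Cldn5 and Tie1 on 0, and their summed signal overlapped, at 0.180 to 0.262 in control and 0.209 to 0.267 in knockdown arrays. The summed signal of 7 fibroblast and pericyte markers overlapped too, at 16.4 to 25.6 and 16.6 to 24.7, with Lum and Rgs5 on 0 arrays. That sum is mostly Acta2, with a control mean of 4.39 where the next marker, Pdgfrb, was at -1.0. Acta2 had a log2 fold change of -0.11, and Dcn, Pdgfrb and Col1a1 had 0.84, 0.42 and 0.36. None of these passed (limma adjusted p = 0.832, 0.0624, 0.232 and 0.718). The part of vessel cells, fibroblasts and pericytes in the laminin values was not tested.

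The Lama5 window, on the minus strand of chr2:180225810-180226109 (GRCm38.p6, RefSeq), is shown beside that of Itga5 because Lama5 had the lowest adjusted p of the laminins, and it also did not hold the AP-1 letters. Its 24 CG pairs are in capitals, and 20.0% of all windows have at least as many.
Lama5: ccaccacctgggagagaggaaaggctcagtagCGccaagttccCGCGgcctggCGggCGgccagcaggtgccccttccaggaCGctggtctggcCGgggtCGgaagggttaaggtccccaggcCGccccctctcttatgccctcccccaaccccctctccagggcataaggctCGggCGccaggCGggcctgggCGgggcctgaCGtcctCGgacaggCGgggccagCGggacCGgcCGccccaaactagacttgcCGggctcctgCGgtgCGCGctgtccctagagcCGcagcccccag

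Of the beta chains, Lamb1 was measured by 3 probes that were all lower in the knockdown but by different amounts. The brightest, used for the gene, gave 6.6, 6.55 and 6.50 in control and 6.38, 6.16 and 6.23 in knockdown arrays, without overlap, and its log2 fold change was -0.29 ± 0.12 (SE) at an adjusted p of 0.171 by limma. The other Lamb1 probes had -0.31 ± 0.17 and -0.87 ± 0.18 (SE). The probe with the larger value, A_55_P2737049, gave 1.97, 1.42 and 1.68 in control and 0.75, 0.73 and 1.0 in knockdown arrays, and in a limma fit of every probe its adjusted p was 0.0619. Lamb2, the beta chain of synapses and the kidney filter, overlapped with 0.16 ± 0.15 (SE).

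Lamb3, a beta chain of the laminin of the epidermis, gave -1.46, -1.28 and -0.83 in control and -0.60, -0.82 and -0.12 in knockdown arrays, so that knockdown 2 lay 0.01 above control 3. Its log2 fold change was 0.68 ± 0.23 (SE) at an adjusted p of 0.117 by limma, the second probe had 0.56 ± 0.26 (SE), and all 3 pairs were positive at 0.86, 0.46 and 0.71. Lamc1, the common gamma chain, overlapped with -0.10 ± 0.13 (SE) and an interval from -0.41 to 0.21, and Lamc3 was not well above background on any array.

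In all, no laminin passed the threshold in limma (0 of 6), while 4 had an unadjusted p below 0.05, Lama5 and Lamb3 with higher and Lama4 and Lamb1 with lower values, beside 24.8% of all genes. With the pair as a replicate block, Lama5 and Lamb3 stayed below an unadjusted p of 0.05 and Lama4 and Lamb1 did not (unadjusted p = 0.0501 and 0.0534 in limma). With array weights, which give arrays far from their group less influence, 3 laminins and 5 integrins passed, and 2559 genes in all. Groups did not overlap for 13 of the 24 members, 9 integrins and 4 laminins, beside 32.4% of all genes. The direction was the same in all 3 pairs for 16 members, beside 48.7% of all genes.

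**Figure D3:**
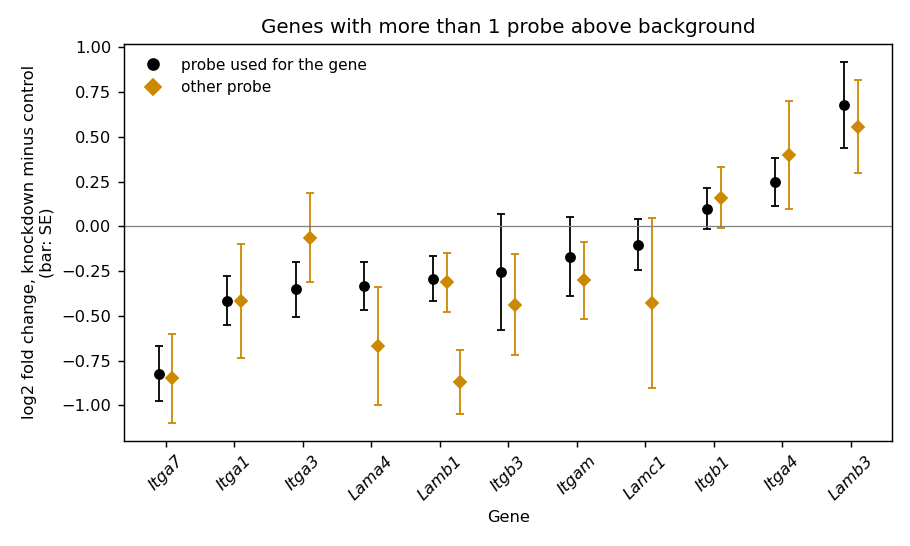
Log2 fold change (knockdown minus control) with its SE for each probe of the 11 members that had more than 1 kept probe, from the fit of every probe; black circles are the probes used for the genes and orange diamonds the others. The probes of each gene share a sign, and Lamb1 has a probe at -0.87 beside others at -0.29 and -0.31.

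Genes of the proteins that connect integrins to actin mostly did not pass. Of 33 tested genes of the adhesion machinery, 2 fell and 0 rose, beside 7.41% of all genes past the threshold, and the median log2 fold change was -0.16. The falls were Zyx, the LIM protein zyxin of mature focal adhesions, and Pxn, the scaffold paxillin, at -0.72 ± 0.13 and -0.63 ± 0.14 (SE) at adjusted p of 0.0259 and 0.0384 by limma. Zyx and Pxn did not pass with the pair as a replicate block (limma adjusted p = 0.0653 and 0.0916). Of 22 integrin inhibitors, binding partners and related genes, 1 rose and 2 fell, with a median of 0.03. Cd82, a tetraspanin that restrains migration, rose 1.91-fold (limma adjusted p = 0.0383). Filip1l, a filamin-interacting gene product, fell to 55.0% (adjusted p = 0.0155) and the urokinase receptor gene Plaur, whose product binds integrins, to 61.0% of control (adjusted p = 0.0474, or 0.0603 with the replicate block).

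Genes of proteins outside the cell that integrins bind included changes of more than 2-fold. Of 24 tested non-collagen ligands and related genes, 2 rose and 2 fell, with a median of 0.08. Thbs1 (thrombospondin-1) and Ccn1, a matrix protein bound by integrins, fell to 25.0% and 33.4% of control (adjusted p = 0.00314 and 0.00768 by limma). Tgfbi, a matrix protein that carries integrin binding motifs, rose 2.99-fold (adjusted p = 0.0222 by limma, or 0.0561 with the pair as a block), and Lrrc32, which holds latent TGF-beta at the cell surface for release by integrins, rose 4.45-fold (limma adjusted p = 0.016). Of 27 basement membrane partners and laminin receptors that are not integrins, 1 rose and 0 fell, with a median of 0.04. The rise was Bcam, a surface receptor for Lama5, at 2.0-fold (adjusted p = 0.0422 by limma, or 0.102 with that block), near background on the controls and above it on 5 of 6 arrays. Each gene counted once, 10 of 105 genes of these lists passed, 4 higher and 6 lower, beside 4.57% and 2.84% of all genes in those directions. At an unadjusted p below 0.05 in limma stood 8 of 33 genes of the adhesion machinery, 8 of 22 inhibitors, partners and related genes, 11 of 24 ligands and 5 of 27 basement membrane genes, or 24.2%, 36.4%, 45.8% and 18.5%, beside 24.8% of all genes. All of these lists were chosen with earlier results of these data known, so their counts and shares are no independent comparison with all genes. Without knockdown 1, 8 of the 10 genes still passed, and Plaur and Bcam did not (limma adjusted p = 0.0845 and 0.066). Of the 10, 1 still passed without control 1, 2 without control 2, 5 without control 3, 6 without knockdown 2 and 2 without knockdown 3.

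**Figure D4:**
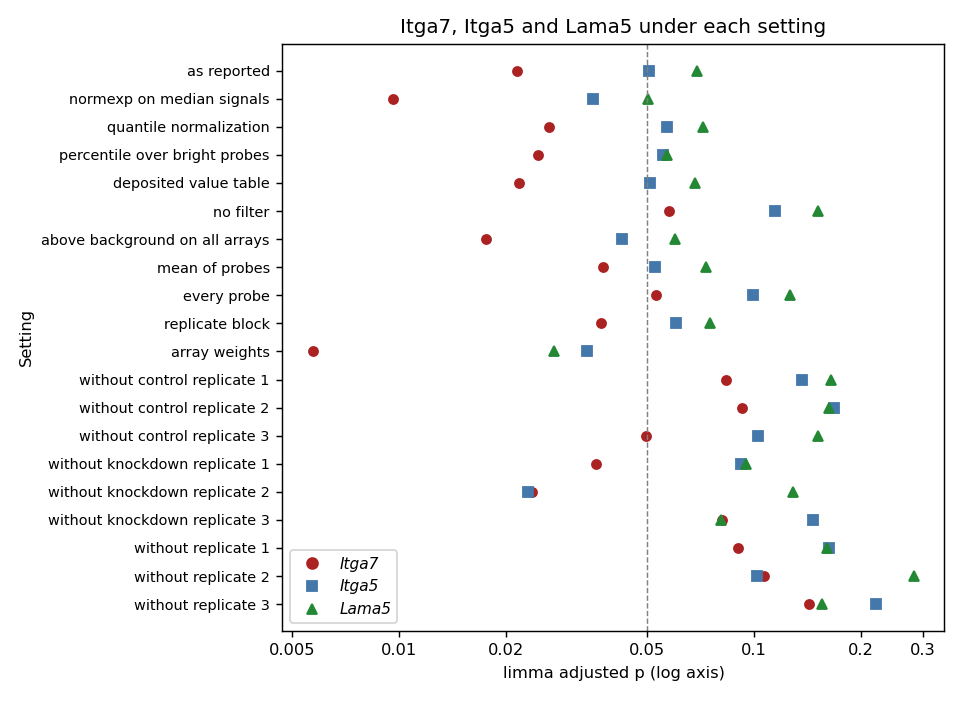
Limma adjusted p (log axis) of Itga7, Itga5 and Lama5 under the reported setting and 19 alternatives, with the threshold of 0.05 as a dashed line. Itga7 lies left of the line in 12 of 20 settings and runs from 0.00571 to 0.143, Itga5 lies left of it in 4 and Lama5 in 1.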

How the data were processed

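Total RNA of 6 samples, 3 per group, was labelled with Cy3 and hybridised to single-colour arrays of 1 slide scanned on 1 date. Per the file headers, Agilent Feature Extraction 11.0.1.1 made the deposited intensity values, with background already subtracted; other processing by the authors is not given in the sources used here. The deposited table of log2 values differed from log2 of those signals by a constant per array, within 0.01. Spots flagged as outliers were left out, spots of a probe averaged as log2, and the array's 75th percentile subtracted. Accessions matched to RefSeq (GRCm38) named 58.3% of probes. A probe was kept if 3 or more of the 6 arrays showed it well above background (31804 probes), and each gene was read from its brightest kept probe. The limma package, version 3.58.1 under R 4.3.3, gave two-sided tests of the knockdown without a block. The fit was tested on 20 simulated data sets with 200 changed genes each, fewer than passed here. It called 17.7% of 1.5-fold, 62.9% of 2-fold and 92.1% of 4-fold changes, and 4.55% of its calls were false. A gene that did not pass is therefore not shown to be unchanged. Python 3.11.15, pandas 2.3.3 and matplotlib 3.10.9 served for tables and plots.

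Samples were paired by the date in their titles, and the titles do not say what was done on that date. Deviations of paired arrays from their group means correlated at -0.02, 0.55 and -0.20 over genes in pairs 1 to 3. The pairing is thus read from the titles and is not established by these values. Members and lists were chosen with earlier results of these data known. All members counted are named, with all 6 values for those past or nearest the threshold, and up to 6 genes per direction of each list. Some genes of these families are not reported here and are in none of the counts of members. The number of arrays limits the precision.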

Additional observations from a re-analysis of the deposited data

How the results depend on the processing

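19 alternatives were run. Normexp on mean signals could not be run on the columns analysed here, and normexp on median signals replaced it after the data had been seen. All 13 members with an unadjusted p below 0.05 kept their direction in every alternative. The count of integrins past the limma threshold, 1 as reported, was 2 with normexp, 2 with probes above background on all arrays, 0 with every probe fitted and 5 with array weights. Without a filter Itga7 gave way (adjusted p = 0.0578) and the count stayed at 1 through Itga11, which is below background on all arrays. With single arrays or pairs left out the integrin count ran from 0 to 2, and it was 0 without control 1, control 2, knockdown 3, pair 2 or pair 3. Without pair 1 Itga7 was lost too (limma adjusted p = 0.0904), and the count of 1 was Itga8. The laminin count, 0 as reported, was 3 with array weights and 0 in the other alternatives. The count over the pathway lists, 10 as reported, was 5 without a filter, 4 with every probe fitted, 5 with the replicate block, 26 with array weights and 0 to 12 with arrays or pairs left out. For all genes, 1048 as reported, these counts were 357, 556, 558, 2559 and 0 to 840. The 556 is a count of probes among the 31804 kept, named or not, and not of genes. In that fit the integrin, laminin and list counts take only the probe used for each gene. The count for all genes was 14 without control 1, 42 without control 2, 21 without knockdown 3 and 0 without pair 3. With the replicate block Itga7 passed (limma adjusted p = 0.0372), and the block changed no other call among the members. Values near 0 changed sign. Itgb2 was at -0.18 with array weights and, with arrays or pairs left out, ran from -0.26 to 0.28, Itgal from -0.14 to 0.028, Itgam from -0.41 to 0.15, Itgav from -0.18 to 0.014, Itgb3 from -0.63 to 0.0011 and Lamc1 from -0.21 to 0.022. The integrin median ran from -0.14 to 0.01 over all alternatives, within the spread of the pair medians. The laminin median, 0.029 as reported, was -0.028 without a filter, -0.052 with the mean of probes, -0.023 with array weights and -0.040 to 0.081 with arrays or pairs left out, so its sign is not settled. The cause of these differences was not tested, and some alternatives also change the number of features or arrays. Signals less than 1 log2 unit above the lowest bright signal, as for Itga2, Itgae and Itgb3, limit how well their folds are known.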
